A study of Homo sapiens with 12 samples.

Results

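The aryl hydrocarbon receptor (AhR) pathway was followed through 6 genes, CYP1A1, CYP1B1, AHR, AHRR, TIPARP and ALDH3A1, of 34694 gene symbols in the deposited expression tables. The genes were chosen by name, with the response of CYP1A1 to low oxygen and the difference of that response between cell lines already known. All 6 had a row for KYSE150 and 5 had one for KYSE410; AHRR in KYSE410 was not analysed here. The change between oxygen levels and its difference between lines are therefore given for these genes as a description, without a test.

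The RNA came from 2 established cell lines of human squamous carcinoma of the esophagus, KYSE150 and KYSE410, both labelled wild type. Oxygen was 21% in the normoxic and 0.5% in the hypoxic groups, and each of the 4 groups of line and oxygen has 3 libraries. The hypoxic libraries carry a time point of 48 h and the normoxic ones of 0, while the design text names 1 incubation for both oxygen levels. Nothing in the labels says that replicates were separate cultures, so every p-value measures the spread between these libraries, which may be technical.

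AHR encodes a ligand-activated transcription factor of the bHLH-PAS family that waits in the cytosol with HSP90 chaperones and the cochaperone PTGES3. After binding a planar aromatic ligand, such as a polycyclic hydrocarbon of tobacco smoke or a tryptophan metabolite, it enters the nucleus, pairs with ARNT and binds xenobiotic response elements. CYP1A1 and CYP1B1 are its best known target genes, and AHRR and TIPARP are induced by it and restrain it. ARNT is also the partner of the hypoxia-inducible factors HIF1A and EPAS1, and the CYP1 enzymes consume oxygen in each reaction.

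Values are FPKM, fragments scaled by transcript length and by the size of the library, which compare genes per length. The depth of the libraries is unknown. Same-group libraries differed with an SD of 0.153 to 0.197 on the log2 scale, except for KYSE150 normoxia replicate 2, which differed from the other KYSE150 normoxia libraries with SDs of 0.339 and 0.369. In KYSE410 the normoxic libraries have sample-sheet numbers 38 to 40 and the hypoxic ones 56 to 58, so oxygen and library set cannot be told apart in that line; in KYSE150 the numbers run from 50 to 55. Of the hypoxia markers, the carbonic anhydrase gene CA9 had 9.80 ± 0.292 FPKM in KYSE150 normoxia against 76.8 ± 4.24 in hypoxia, and 4.05 ± 0.353 against 54.7 ± 4.99 in KYSE410 (SD, n = 3; limma, adjusted p = 2.499e-07 and 5.512e-09). NDRG1, a stress-response gene, had 71.1 ± 5.89 against 1072 ± 22.7 and 16.0 ± 2.08 against 1194 ± 60.4 FPKM (limma, adjusted p = 1.372e-07 and 1.638e-09). Of 7 squamous markers, KYSE410 had 6 above 2 FPKM in every library, while in KYSE150 KRT17 was the only one above 1 FPKM, with KRT5 and DSG3 at 0 in all 3 normoxic libraries; SOX2 stayed below 0.1 FPKM in both lines. PTPRC, PECAM1, VWF and CDH5, markers of leukocytes and endothelium, stayed at or below 0.104 FPKM in all 12 libraries. Other markers of these and of fibroblasts were detected: CD68, a lysosomal gene used as a macrophage marker, at 15.3 to 85.2 FPKM over both lines, and the T cell marker CD3E at 0.095 to 0.386 in KYSE410. In KYSE150 the fibroblast markers COL1A1, PDGFRB and DCN had 4.48 to 6.05, 0.628 to 1.79 and 0.364 to 0.432 FPKM, and in KYSE410 they stayed at or below 0.935. COL1A2, also a fibroblast marker, was at most 0.047 FPKM in KYSE150 and 0.574 in KYSE410. Of the epithelial markers, EPCAM and CDH1 had 4.11 to 7.30 and 0.074 to 0.432 FPKM in KYSE150. In KYSE410 they had 77.4 to 100.1 and 46.4 to 90.6. The lowest values of KRT8 and KRT18 were 263.7 and 282.5 FPKM in KYSE150 and 458.9 and 468.0 in KYSE410. The part of these markers in the results was not tested. Hypoxia was called for 62.3% of 12692 tested genes in KYSE150 and 83.1% of 12054 in KYSE410, with 37.7% and 37.6% of the called genes higher. The median log2 change of all tested genes was -0.13 and -0.21. With median-of-ratios scaling these medians became 0.02 and -0.03 and the higher shares 52% and 48.2%, and rescaling to a common sum gave -0.12 and -0.42 with 38.5% and 26.8%.

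Promoter windows of CYP1A1, TIPARP and AHR are shown because these genes gave the 3 patterns of response: opposite between lines, higher in hypoxia in both lines, and lower in both. Each runs from 250 bases before to 50 after a RefSeq start (GRCh38.p14), 5′ to 3′ on the gene's strand. Capitals mark GCGTG, the core of the xenobiotic response element, and ACGTG, on either strand; both pentamers are also the usual cores of the hypoxia response element, so GCGTG does not separate the 2 factors.
CYP1A1, chr15:74725479-74725778, minus strand: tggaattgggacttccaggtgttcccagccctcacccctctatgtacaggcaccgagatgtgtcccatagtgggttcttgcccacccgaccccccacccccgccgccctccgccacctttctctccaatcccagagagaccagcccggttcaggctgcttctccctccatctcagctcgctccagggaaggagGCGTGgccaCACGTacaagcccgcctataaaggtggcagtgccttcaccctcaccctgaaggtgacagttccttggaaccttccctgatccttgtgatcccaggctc
TIPARP, chr3:156674340-156674639, plus strand: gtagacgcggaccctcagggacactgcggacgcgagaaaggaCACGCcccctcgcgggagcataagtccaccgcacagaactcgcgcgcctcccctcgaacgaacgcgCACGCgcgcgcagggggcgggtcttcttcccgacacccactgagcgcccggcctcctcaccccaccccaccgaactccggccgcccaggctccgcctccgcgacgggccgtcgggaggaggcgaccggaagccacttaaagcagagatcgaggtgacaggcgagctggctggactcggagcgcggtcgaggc
AHR, chr7:17298402-17298701, plus strand: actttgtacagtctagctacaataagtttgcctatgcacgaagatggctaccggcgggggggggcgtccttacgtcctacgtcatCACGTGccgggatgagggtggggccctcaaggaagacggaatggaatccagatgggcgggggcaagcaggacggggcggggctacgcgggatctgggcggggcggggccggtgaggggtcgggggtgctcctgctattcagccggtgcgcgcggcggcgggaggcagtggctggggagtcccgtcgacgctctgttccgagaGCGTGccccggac
The CYP1A1 window held GCGTG from base -57 to -53 of the start and ACGTG, on the other strand, from -48 to -44. The TIPARP window shown, the first of 3, held GCGTG 2 times, both on the other strand, while its other windows held 0 of the motifs searched. The AHR window held GCGTG 1 time, from 38 to 42 after the start, besides a CACGTG that matches ACGTG on both strands. The first of 2 AHRR windows held the longer form TNGCGTG from -32 to -26, and the second held GCGTG 2 times. GCGTG was found in 36.5% of 35116 RefSeq windows of this length, ACGTG in 21.4% and TNGCGTG in 5.5%. Matches are a description of these letters and not of binding. Sequence outside the windows, such as further upstream, was not searched.

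AHR, the receptor gene (chromosome 7, 16916359 to 17346152, GENCODE 29), was lower in hypoxia in both lines. In KYSE150 it read 12.6, 8.40 and 12.3 FPKM in the normoxic libraries, against 7.37, 8.12 and 7.95 in the hypoxic ones. The groups stood apart, but normoxia replicate 2 lay just above the highest hypoxic library. The log2 change was -0.44 ± 0.14 (SE) on the log2(FPKM + 1) scale, and -0.61 without that library. In KYSE410 AHR read 19.4, 20.1 and 20.4 FPKM in normoxia, against 9.38, 10.5 and 9.85 in hypoxia. Here the 2 groups were far apart, with a log2 change of -0.95 ± 0.05. AHR has a long transcript of 6958 nucleotides, and with the length trend of each library removed its change in KYSE410 was -0.49. It overlaps the protein-coding AC019117.2 on the same strand and an antisense gene, so some of its reads are uncertain. In bulk libraries, less RNA per cell and fewer cells carrying it cannot be told apart.

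AHRR, the repressor that competes with AHR for ARNT (chromosome 5, 304176 to 438291), had 13.4, 12.9 and 15.5 FPKM in KYSE150 normoxia, against 12.2, 11.3 and 11.7 in hypoxia. The groups did not overlap, yet the gap between the nearest libraries was small. The log2 change was -0.23 ± 0.09, against -0.13 for the median gene, and it was -0.06 after scaling by the median of ratios. AHRR overlaps PDCD6 on the same strand, and the tables also list the readthrough gene PDCD6-AHRR, so reads may be split between them. That readthrough row was below 0.2 FPKM in every KYSE150 library, and in KYSE410 it was 0.996 ± 0.203 FPKM in normoxia and 0.199 ± 0.049 in hypoxia.

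TIPARP, a mono-ADP-ribosyltransferase that modifies AHR (chromosome 3, 156673235 to 156706770), was higher in hypoxia in both lines. KYSE150 had 27.9, 22.6 and 28.3 FPKM in normoxia, against 62.5, 79.9 and 65.7 in hypoxia, a ratio of means of 2.64 and a log2 change of 1.37 ± 0.12. Every hypoxic library was more than 30 FPKM above every normoxic one. KYSE410 had 24.1, 24.1 and 24.9 FPKM in normoxia, against 44.6, 44.5 and 44.1 in hypoxia, a ratio of 1.82 and a log2 change of 0.84 ± 0.03. Its replicates varied less in KYSE410 than those of the other pathway genes measured there, with a coefficient of variation of 1.97% in normoxia and 0.562% in hypoxia. TIPARP-AS1, a noncoding gene on the opposite strand that overlaps the TIPARP start, was 0.146 ± 0.070 FPKM in KYSE410 normoxia and 2.70 ± 0.580 in hypoxia. In KYSE150 it was 0.224 ± 0.057 in normoxia and 0.437 ± 0.068 in hypoxia, with groups apart and all libraries below 0.5 FPKM. The strand setting of the counting is not given in the sources used here, so reads of the overlap cannot be assigned.

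CYP1A1, which oxidises polycyclic hydrocarbons (chromosome 15, 74719542 to 74725610, minus strand), was higher in hypoxia in KYSE410 and lower in KYSE150. KYSE410 had 10.5, 13.3 and 10.6 FPKM in normoxia, against 88.3, 84.7 and 96.8 in hypoxia. All hypoxic libraries lay above 80 FPKM and all normoxic ones below 14, a ratio of means of 7.85 and a log2 change of 2.87 ± 0.09. This was rank 33 from the top among 12054 tested genes. KYSE150 had 2.32, 2.45 and 2.63 FPKM in normoxia, against 1.17, 0.865 and 0.797 in hypoxia. The hypoxic libraries were all lower, by a factor of 2.61 in the means and by -0.84 ± 0.10 on the log2 scale. The gene passed the filter of 1 FPKM in KYSE150 through its normoxic libraries. At this level the added constant of 1 shrinks the change, which was -1.31 with a constant of 0.1.

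CYP1B1, the sister enzyme that is common outside the liver (chromosome 2, 38066973 to 38109902, minus strand), was lower in hypoxia in both lines. KYSE150 had 29.6, 23.2 and 30.4 FPKM in normoxia, against 10.8, 11.05 and 11.7 in hypoxia. The lowest normoxic library, replicate 2, still lay well above the highest hypoxic one, and the log2 change was -1.23 ± 0.11. KYSE410 had 3.46, 3.90 and 3.76 FPKM in normoxia, against 1.83, 1.85 and 1.98 in hypoxia, a log2 change of -0.70 ± 0.07. With the length trend removed this was -0.34, for a transcript of 5250 nucleotides. CYP1B1 overlaps RMDN2 at its end and CYP1B1-AS1, both on the opposite strand; RMDN2 had 0.635 to 1.04 FPKM in KYSE150 and 1.47 to 2.49 in KYSE410.

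The balance of the CYP1 genes differed between lines. The ratio of CYP1A1 to CYP1B1 FPKM was 0.090 ± 0.014 in KYSE150 normoxia and 0.085 ± 0.021 in hypoxia (SD, n = 3), which overlap. In KYSE410 it was 3.08 ± 0.295 in normoxia and 47.6 ± 1.60 in hypoxia. The summed FPKM of the pair was 30.2 ± 3.98 and 12.1 ± 0.330 in KYSE150, and 15.2 ± 1.76 and 91.8 ± 6.28 in KYSE410. CYP1A2, the third gene of the family, was at most 0.068 FPKM in any KYSE410 library and was not analysed here in KYSE150.

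ALDH3A1, an aldehyde dehydrogenase of squamous epithelia and cornea (chromosome 17, 19737984 to 19748943, minus strand), was measurable in 1 line. KYSE150 had 6.70, 8.86 and 6.70 FPKM in normoxia, against 6.34, 6.86 and 5.16 in hypoxia. These groups overlapped, and the log2 change was -0.24 ± 0.13, or -0.12 without normoxia replicate 2, the highest library. In KYSE410 it was listed at 0, 0 and 0.014 FPKM in normoxia, against 0.041, 0.013 and 0.014 in hypoxia, below the filter, so no change was fitted there.

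**Figure D1:**
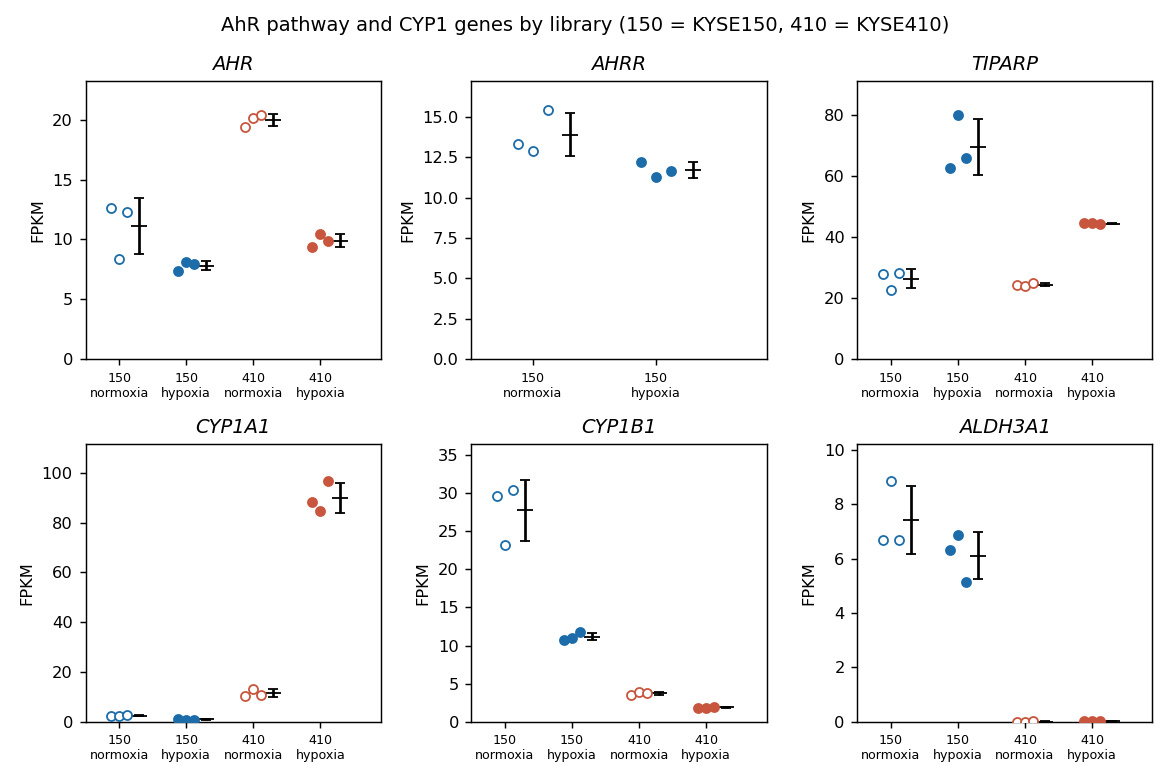
FPKM of each gene in each library (open circles normoxia, filled circles hypoxia, blue KYSE150, red KYSE410), with the mean and SD of the 3 libraries beside them in black. CYP1A1 lies between 84.7 and 96.8 FPKM in KYSE410 hypoxia and below 14 elsewhere, and AHRR is shown for KYSE150 alone.

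In KYSE150 the oxygen groups did not overlap for 5 of the 6 genes, ALDH3A1 being the exception, against 69.6% of all tested genes. In KYSE410 they did not overlap for the 4 genes that passed the filter, against 84.6%. Since the genes were chosen with these comparisons known, nothing is read from these counts.

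**Figure D2:**
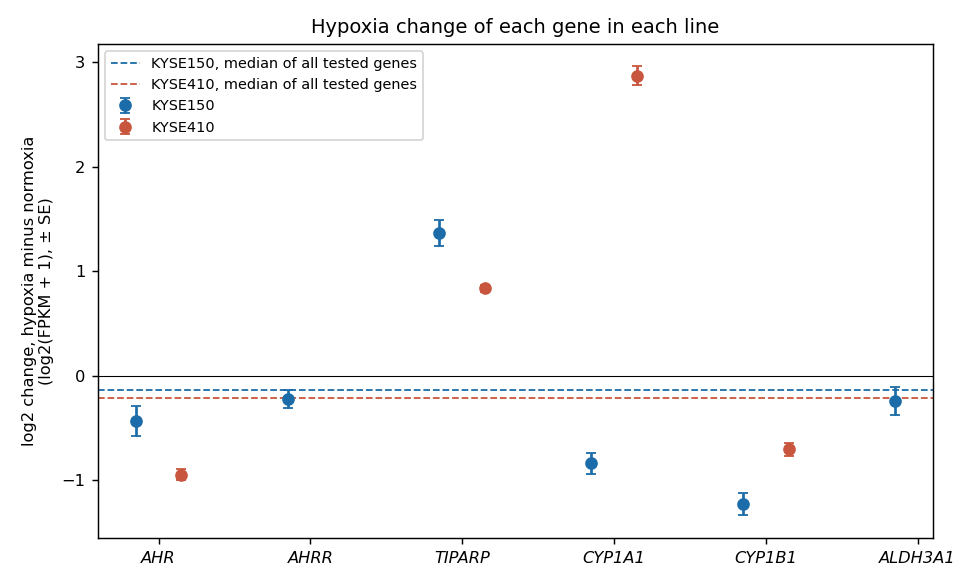
Log2 change (hypoxia minus normoxia, on log2(FPKM + 1), ± SE) of each gene in KYSE150 (blue) and KYSE410 (red), with the median of all tested genes as dashed lines. CYP1A1 stands at -0.84 in KYSE150 and 2.87 in KYSE410, while AHR, TIPARP and CYP1B1 keep 1 side of 0 in both lines.

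The response was set side by side between lines in a joint fit of all 12 libraries. Being KYSE410 minus KYSE150, each difference also contains the library set of KYSE410. Differences were called for 63.3% of 12653 genes, 27.3% higher and 36% lower, and nothing is read from this for the pathway genes. CYP1A1 differed by 3.71 ± 0.14 on the log2 scale, rank 4 from the top. CYP1B1 differed by 0.52 ± 0.13, its change being nearer to 0 in KYSE410, where its level was low. That difference was 0.34 with rescaling to a common sum, 0.36 with an added constant of 0.1, 0.76 after quantile normalization and 0.81 with the length trend removed. AHR differed by -0.51 ± 0.16 and TIPARP by -0.53 ± 0.13. The AHR difference was -0.34 without KYSE150 normoxia replicate 2, -0.74 with rescaling to a common sum and -0.11 with the length trend removed. That of TIPARP was -0.78 with rescaling to a common sum and -0.33 with the length trend removed, and that of CYP1A1 ranged from 3.48 to 4.28 over all 21 alternatives. ALDH3A1 differed by 0.27 ± 0.15 and entered the joint fit through its KYSE150 level alone.

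**Figure D3:**
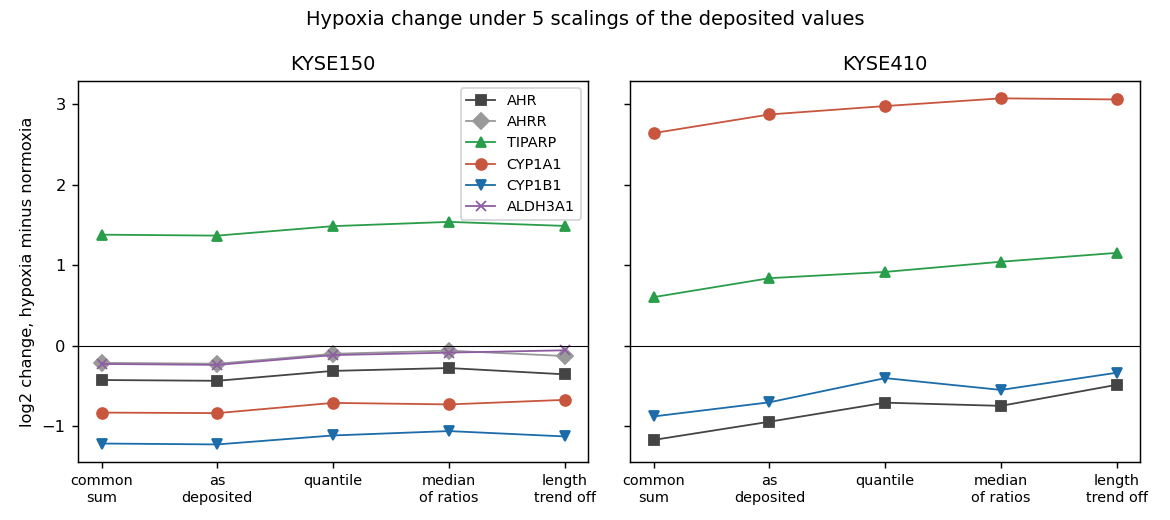
Log2 change (hypoxia minus normoxia) of each gene in KYSE150 (left) and KYSE410 (right) under 5 treatments of the deposited values, from rescaling to a common sum to removal of the length trend. No line crosses 0; AHRR and ALDH3A1 come within 0.1 of it in KYSE150.

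The direction of each change was the same under these 5 treatments, but its size was not. In KYSE410, CYP1A1 ranged from 2.64 to 3.07, TIPARP from 0.60 to 1.15, CYP1B1 from -0.88 to -0.34 and AHR from -1.17 to -0.49. In KYSE150, TIPARP ranged from 1.37 to 1.54, CYP1B1 from -1.23 to -1.06 and CYP1A1 from -0.84 to -0.67. The smaller changes there moved more in proportion, AHR from -0.44 to -0.28, AHRR from -0.23 to -0.06 and ALDH3A1 from -0.24 to -0.06.

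The lines were also compared in normoxia, a contrast that the stated reasons for choosing the genes do not name. This contrast shares libraries with the response, so its p-values are not independent of that choice. It was called for 79.2% of 12653 genes, 40.4% higher and 38.8% lower in KYSE410, and levels set across the tables assume that FPKM is comparable between them. The normoxic libraries have sample-sheet numbers 50 to 52 in KYSE150 and 38 to 40 in KYSE410. Line and library set therefore cannot be told apart in this contrast. CYP1A1 was higher in KYSE410 by 1.84 ± 0.10 and AHR by 0.81 ± 0.11 on the log2 scale (limma, adjusted p = 2.875e-09 and 2.992e-05). CYP1B1 was lower in KYSE410 by a log2 difference of -2.60 ± 0.09 (limma, adjusted p = 4.374e-11). ALDH3A1 had 7.42 ± 1.25 FPKM in KYSE150 and was listed at 0 in 2 of 3 KYSE410 libraries; it entered the fit through its KYSE150 level, so no test and no fold are given. TIPARP, at 26.3 ± 3.14 and 24.4 ± 0.481 FPKM, differed by -0.10 ± 0.09 (KYSE410 minus KYSE150) and did not pass (limma, adjusted p = 0.3603). It did pass without KYSE150 normoxia replicate 2, at -0.20 (adjusted p = 0.03751).

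Ordered by level, CYP1A1 ran from KYSE410 hypoxia through KYSE410 normoxia and KYSE150 normoxia to KYSE150 hypoxia, with no overlap of neighbours. CYP1B1 had its 2 highest groups in KYSE150, again without overlap. AHR was highest in KYSE410 normoxia, and its next groups, KYSE150 normoxia and KYSE410 hypoxia, overlapped. TIPARP was highest in KYSE150 hypoxia and then KYSE410 hypoxia, and its normoxic groups overlapped.

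The genes with the profile most like that of CYP1A1 over the 12 libraries, among 8181 genes of at least 5 FPKM, were the noncoding LOC105372906 and TM9SF2, BLCAP, GAA and CD47 (Pearson r = 0.997, 0.995, 0.994, 0.993 and 0.992). TM9SF2 had 20.0 and 18.5 FPKM in KYSE150 (normoxia, hypoxia) and 28.2 and 45.3 in KYSE410. For TIPARP they were KDM3A, an oxygen-dependent histone demethylase gene, and WDR47 (r = 0.986 for both). For CYP1B1 they were PPP1R15B and the hexokinase-like HKDC1 (r = 0.998 and 0.996), for AHR XPO4 and TASOR2 (r = 0.994 and 0.991), and for ALDH3A1 HPD and the glutathione transferase GSTM4 (r = 0.999 and 0.998). These libraries form 4 groups, so r mostly reflects the 4 group levels.

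The partners of the receptor were fitted in the same models and tested. In KYSE150, 4 of 4 tested partner and chaperone genes rose and 0 fell, with a median log2 change of 0.63 against -0.13 for all genes. In KYSE410, 3 of 4 rose and 0 fell, with a median of 1.23 against -0.21. The KYSE410 split was 3 and 1 with rescaling to a common sum and 4 and 0 with median-of-ratios scaling. For comparison, 23.5% and 31.2% of all tested genes were called higher. The list was chosen with earlier results of these data known, and ARNT2 lay below the filter. Nothing is therefore read from the counts of this list. The chaperone genes HSP90AA1 and HSP90AB1 rose by 0.77 and 0.82 in KYSE150 and by 1.79 and 1.81 in KYSE410. Their response was larger in KYSE410 by 1.02 ± 0.09 and 0.99 ± 0.07 (limma, adjusted p = 1.63e-06 and 5.618e-07). PTGES3 rose by 0.43 and 0.67. Quantile normalization lowered the KYSE410 changes of HSP90AA1, HSP90AB1 and PTGES3 to 1.17, 1.05 and 0.31, with all 3 still called. The list's median fell to 0.72. In KYSE150 the lowest changes of HSP90AA1 and HSP90AB1 over all alternatives were 0.66 and 0.58. The difference between lines is therefore smaller under quantile normalization for both genes. The HSP90 and PTGES3 genes have processed pseudogenes, so their values are uncertain.

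ARNT, the shared partner of AHR and the HIF subunits, rose in KYSE150 from 15.1 ± 2.27 to 21.4 ± 0.760 FPKM (limma, adjusted p = 0.005953). In KYSE410 it had 8.20 ± 0.354 and 8.66 ± 0.254 FPKM and did not pass (limma, adjusted p = 0.2162). Its sign and its call there depend on scaling, from -0.15 to 0.42. ARNT was called lower with rescaling to a common sum (limma, adjusted p = 0.0192). It was called higher with median-of-ratios scaling, quantile normalization and the length trend removed. AHR was lower in hypoxia in both lines, and ARNT was higher in KYSE150. The ratio of AHR to ARNT FPKM was 0.728 ± 0.055 in KYSE150 normoxia and 0.367 ± 0.030 in hypoxia, and 2.44 ± 0.078 and 1.14 ± 0.096 in KYSE410. The ratio of AHR to HIF1A overlapped between oxygen levels in both lines, at 0.251 ± 0.013 and 0.255 ± 0.016 in KYSE150 and 0.316 ± 0.008 and 0.336 ± 0.020 in KYSE410.

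Among bHLH-PAS factors, the family of AHR, 1 of 6 tested genes rose and 3 fell in KYSE150 (median -0.45), and 0 of 4 rose and 3 fell in KYSE410 (median -0.94). Of all tested genes, 38.8% and 51.9% were called lower and 23.5% and 31.2% higher, with medians of -0.13 and -0.21; shares of lists this small are not read against them. EPAS1 fell in both lines (log2 change -0.90 and -1.53). HIF1A fell in KYSE410 (-1.07); its change of -0.49 in KYSE150 passed (limma, adjusted p = 0.01744). It did not pass when normoxia replicate 1, normoxia replicate 3, hypoxia replicate 1 or hypoxia replicate 2 was left out (adjusted p 0.0506 to 0.0696), nor after quantile normalization (0.0823), median-of-ratios scaling (0.0730) or with no filter (0.0695). The circadian factors NPAS2 in KYSE150 and CLOCK in KYSE410 fell (-0.65 and -0.81), the change of CLOCK being -0.28 with the length trend removed.

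Of 21 further genes often described as AhR targets, 4 of 9 tested rose and 5 fell in KYSE150, and 5 of 13 rose and 5 fell in KYSE410. The list medians were -0.79 and -0.04, against -0.13 and -0.21 for all tested genes. Of all tested genes, 23.5% and 31.2% were called higher and 38.8% and 51.9% lower. Nothing is read from the counts of this list or of the lists below. The glycoprotein hormone gene STC2 fell in both lines (-1.37 and -2.96). NQO1, a quinone reductase also driven by NRF2, fell in KYSE150 from 105 ± 12.3 to 48.1 ± 0.637 FPKM, and NEDD9, a scaffold protein gene of focal adhesions, from 7.18 ± 1.08 to 3.19 ± 0.364. NEDD9 also fell in KYSE410 (-0.42), where NQO1 did not pass (0.05). HES1, a Notch effector, rose from 11.3 ± 0.891 to 36.7 ± 0.786 FPKM in KYSE410, and PTGS2, a prostaglandin synthase gene, from 2.34 ± 0.346 to 8.23 ± 0.266. VAV3, a guanine nucleotide exchange factor gene, rose there from 2.36 ± 0.470 to 8.20 ± 0.719 FPKM. Both HES1 and PTGS2 also rose in KYSE150, by 0.81 and 0.42, while VAV3 was below the filter in that line. With rescaling to a common sum the KYSE410 counts were 4 higher and 7 lower, and the median was -0.22. Several of these genes also answer to other factors, so the list is not specific to AHR.

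Genes of tryptophan uptake and breakdown, a source of AhR ligands, had 1 of 7 tested genes higher and 3 lower in KYSE150, and 1 of 5 higher and 3 lower in KYSE410 (medians -0.09 and -0.15). All tested genes had medians of -0.13 and -0.21, with 23.5% and 31.2% called higher and 38.8% and 51.9% lower. SLC3A2 and SLC7A5, which together form the large neutral amino acid transporter, fell in both lines. SLC3A2 had 443 ± 50.9 FPKM in KYSE150 normoxia and 76.2 ± 2.08 in hypoxia, and 419 ± 4.37 and 287 ± 3.03 in KYSE410; the responses differed by 1.97 ± 0.10 (limma, adjusted p = 2.695e-08). The KYSE410 change of SLC3A2, -0.55, was -0.33 with median-of-ratios scaling and -1.17 after quantile normalization. SLC7A5 changed by -1.20 and -1.34, and its response was not shown to differ (difference -0.14 ± 0.09, limma, adjusted p = 0.1715). AFMID, of kynurenine formation, rose by 0.37 and 0.70; the KYSE150 call was lost under 5 alternatives (adjusted p 0.0794 to 0.106): leaving out normoxia replicate 1, normoxia replicate 3, hypoxia replicate 2 or hypoxia replicate 3, and using no filter; it was 0.57 with the length trend removed. KYNU in KYSE150 fell (-0.55, or -1.002 with an added constant of 0.1), and that call was lost without hypoxia replicate 2 (adjusted p = 0.0822) and with no filter (0.0877). KYAT1 in KYSE410 changed by -0.15 (adjusted p = 0.01874), was -0.36 with rescaling to a common sum, and turned sign after median-of-ratios scaling (0.03), quantile normalization (0.17) and removal of the length trend (0.02). Its call was also lost in the joint fit (adjusted p = 0.0830) and without normoxia replicate 1 (0.0562), hypoxia replicate 2 (0.0513) or hypoxia replicate 3 (0.0546).

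Electron donors of microsomal P450 enzymes and heme synthesis genes had 3 of 12 tested genes higher and 4 lower in KYSE150 (median -0.14), and 6 of 11 higher and 3 lower in KYSE410 (median 0.25). The KYSE410 split was 4 and 4 with rescaling to a common sum and 8 and 1 with median-of-ratios scaling. Called shares of all tested genes were 23.5% and 31.2% higher and 38.8% and 51.9% lower (medians -0.13 and -0.21). CPOX, a late enzyme of heme synthesis, rose by 0.92 and 1.17. UROS and FECH fell in KYSE150 (-1.43 and -0.89) and by less in KYSE410 (-0.37 and -0.35). ALAS1, the first enzyme of the pathway, fell in both lines, with 52.3 ± 0.470 against 28.8 ± 0.591 FPKM in KYSE150 and 33.3 ± 0.697 against 13.9 ± 1.37 in KYSE410. In KYSE410 PGRMC1, a heme-binding partner of P450s, rose from 31.4 ± 1.24 to 65.4 ± 0.437 FPKM, and CYB5R3, the cytochrome b5 reductase gene, from 10.6 ± 0.323 to 18.3 ± 0.488.

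Most P450 genes of families 2 and 3 were near 0, with 3 tested in KYSE150 and 1 in KYSE410. CYP2S1, itself described as dioxin inducible, rose in both lines, with 5.32 ± 0.268 against 9.93 ± 0.359 FPKM in KYSE150 and 3.56 ± 0.567 against 8.94 ± 0.269 in KYSE410 (limma, adjusted p = 7.663e-05 and 3.984e-06). CYP2R1, a vitamin D hydroxylase, fell in KYSE150 (-0.97). Among other aldehyde dehydrogenases, 5 of 13 rose and 5 fell in KYSE150 and 5 of 12 rose and 4 fell in KYSE410 (medians -0.05 and 0.07). For all tested genes the shares were 23.5% and 31.2% higher and 38.8% and 51.9% lower (medians -0.13 and -0.21). ALDH1B1 (-1.17 and -1.79) and ALDH1A3 (-0.80 and -0.46) fell in both lines. ALDH1L2 (-1.65) and ALDH3A2 (-0.81) fell in KYSE150, while ALDH1L2 was below the filter in KYSE410 and ALDH3A2 did not pass there (0.09). ALDH6A1 and ALDH7A1 rose in both lines, by 0.43 and 0.55 in KYSE150 and by 0.75 and 0.50 in KYSE410. ALDH3B2 fell in KYSE410 (-0.72) and was below the filter in KYSE150. Rescaling to a common sum left 2 higher and 7 lower in KYSE410, with ALDH7A1 at 0.27; removal of the length trend gave ALDH6A1 1.13 and ALDH7A1 0.86, and quantile normalization gave ALDH3B2 -0.43.

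Other PARP family genes, relatives of TIPARP, had 3 of 13 higher and 3 lower in KYSE150 and 9 of 15 higher and 4 lower in KYSE410 (medians 0.13 and 0.18). After median-of-ratios scaling 8 were higher and 3 lower in KYSE150, and rescaling to a common sum gave 5 and 4 in KYSE410. Without rescaling, 23.5% and 31.2% of all tested genes were called higher and 38.8% and 51.9% lower (medians -0.13 and -0.21). PARP16, of the endoplasmic reticulum, rose by 0.83 and 0.94 and PARP8 fell (-1.25 and -1.03; -0.56 in KYSE410 with the length trend removed). TNKS rose by 0.87 in KYSE150 and by 0.49 in KYSE410. ZC3HAV1, an antiviral zinc finger gene, fell in KYSE150 (-0.63) and rose slightly in KYSE410 (0.18, limma, adjusted p = 0.0205). Rescaling to a common sum moved the median of all KYSE410 genes from -0.21 to -0.42, so this small rise may depend on scaling. PARP1 rose by 0.70 in KYSE410, or 0.46 with rescaling to a common sum, and PARP14 fell there (-0.69), a call lost with the length trend removed (-0.19, adjusted p = 0.0585).

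**Figure D4:**
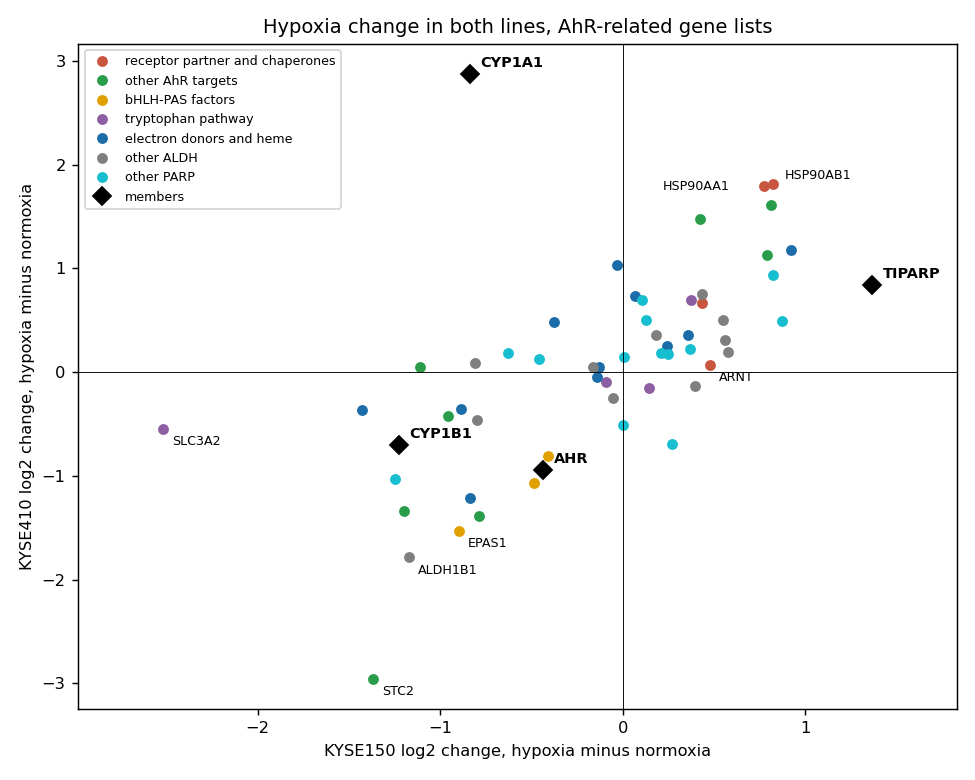
Log2 change (hypoxia minus normoxia) in KYSE150 (x axis) and KYSE410 (y axis) for 54 list genes tested in both lines, coloured by list, and the 4 pathway genes tested in both (black diamonds). CYP1A1 is at the upper left, at -0.84 and 2.87, while TIPARP and the HSP90 genes are at the upper right and AHR and CYP1B1 at the lower left.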

How the data were processed

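Expression was deposited as FPKM, in a separate table for each line; the unit was inferred from the values. Per the submitters' processing notes, bcl2fastq 2.20, fastp 0.22.0, HISAT2 2.2.1 and the build hg38 were used; for the quantifier, the annotation and the strand, the labels name nothing. Low values did not fall in whole-read steps: the commonest ratio between 2 libraries (± 0.005 on the log2 scale) held at most 1.43% of genes under 0.05 FPKM. Depth is therefore unknown and no counting interval is given.

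From these, log2(FPKM + 1) was fitted with limma 3.58.1 in R 4.3.3 (empirical Bayes, mean trend) for genes averaging 1 FPKM or more, within each line (12692 and 12054 genes) and jointly over 12 libraries (12653 genes). Genes with a Benjamini-Hochberg adjusted p under 0.05 were called. The fits were tested on simulated data. The members and the gene lists were chosen with earlier results of these data known, and lists are described by counts, without a set test. Named genes are every member, every receptor partner or chaperone, up to 4 called genes per list and line with the largest change, CA9 and NDRG1, and the genes with the highest correlation to each member (5 for CYP1A1, 2 for each other). Older symbols were matched through a table of names; list genes without a row were not analysed here. Some list genes are not reported here and enter no list count. Overlapping genes, CYP1A2 and the genes of the last section were added after their values were seen. Gene positions and lengths are from GENCODE 29 and promoters from RefSeq (GRCh38.p14), which held windows for 4 members. Alternatives covered scaling, filters, the pseudocount, the trend, transcript length, the replicate number as a block and each library left out. Python 3.11.15 and matplotlib 3.10.9 made the summaries and plots.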

Additional observations from a re-analysis of the deposited data

Results flagged for a closer look

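CYP1A1 was lower in every KYSE150 hypoxic library and higher in every KYSE410 hypoxic library than in any normoxic library of its line, a difference in response of 3.71 (log2, KYSE410 minus KYSE150) that was not tested, since the gene was chosen for it. The named list genes that could be tested in both lines were put to the interaction test of limma (adjusted p under 0.05). Over 12653 genes, 63.3% were called. PTGES3, CLOCK, SLC7A5, AFMID, CPOX, ALDH6A1, ALDH7A1, PARP8, PARP16 and TNKS did not pass. Outside the receptor partners, named genes were picked for a large change in either line, so they are not compared with that share. Those that passed follow. The receptor partners gave ARNT -0.41, HSP90AA1 1.02 and HSP90AB1 0.99. Other described AhR targets gave STC2 -1.59, NEDD9 0.54, HES1 0.80, PTGS2 1.05 and NQO1 1.15. The HIF subunits gave HIF1A -0.58 and EPAS1 -0.63, and tryptophan genes SLC3A2 1.97 and KYAT1 -0.30. Heme and electron transfer genes gave UROS 1.06, FECH 0.53, ALAS1 -0.37, PGRMC1 1.07 and CYB5R3 0.66. CYP2S1 differed by 0.34, ALDH1B1 by -0.62, ALDH3A2 by 0.90 and ALDH1A3 by 0.34 (0.335). The PARP family gave ZC3HAV1 0.81, PARP1 0.59 and PARP14 -0.96. Each value also contains the library set of KYSE410, from which oxygen cannot be told apart there. Rescaling to a common sum moved the median difference of all genes from -0.09 to -0.29, so the smaller values may depend on scaling. The KYSE410 changes of KYAT1 and ARNT turned sign with some scalings, and those of the HSP90 genes were smaller after quantile normalization.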

How the results depend on the processing

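Over all genes, 141 of 146 alternative counts stayed within 1.5 times the reported one. The other 5 came from a filter at a mean of 5 FPKM, under which fewer genes are tested: 3253 lower in KYSE150 in place of 4925, 4007 lower in KYSE410 in place of 6254, 2981 lower for the difference in response in place of 4560, and 3400 higher and 3208 lower for the normoxic difference in place of 5115 and 4904. The higher share for the difference in response was 43.1%, and 28.2% with rescaling to a common sum. The TIPARP difference between lines in normoxia, which was not called, turned sign with that rescaling (0.0036). Of the other member values, 321 stayed within the spread between libraries or kept their call, 37 moved by more without a change of sign, and 1 passed that had not. Of the list counts, 465 stayed within 1.5 times the reported one and 47 did not. Samples share only a replicate number: deviations of same-numbered libraries from their group means correlated at -0.069 to 0.084, and the replicate block gave 2922 higher and 4835 lower genes in KYSE150 and 3730 and 6201 in KYSE410. No blocked fit was made for the normoxic difference, since the block lies within lines. The unknown depth leaves low values, such as CYP1A1 in KYSE150 hypoxia and ALDH3A1 in KYSE410, without a counting error.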

Other observations

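Some genes of the lists lay below the filter of 1 FPKM and were not tested; the 3 named here were chosen after their values were seen. ARNT2, a relative of ARNT, had 0.076 ± 0.037 FPKM in KYSE150 normoxia and 0.505 ± 0.040 in hypoxia, and 0.036 ± 0.012 and 0.379 ± 0.188 in KYSE410, with groups apart in both lines. UGT1A6, a glucuronosyltransferase gene described as an AhR target, had a mean of 0.014 FPKM in KYSE410 normoxia and 0.345 in hypoxia, and 0.032 and 0 in KYSE150. IDO1, which starts tryptophan breakdown, was at most 0.310 FPKM in any KYSE150 library and 0.027 in any KYSE410 library.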
